A study of Rattus norvegicus with 36 samples.

Results

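The non-silencing shRNA line of CG-4 cells was compared with untreated CG-4 cells, a comparison of 2 control groups, on 6 of the 18 arrays of the series and over all 18901 transcript clusters of the gene-level table. CG-4 is a rat cell line that stands for oligodendrocyte progenitors, the dividing glial precursors that give rise to the myelin-forming cells of the brain. The 3 arrays of the line carry the titles of a stable line with a short hairpin RNA (shRNA) that has no target, and the other 3 those of untransfected cells. The remaining arrays cover a stable line whose shRNA targets the splicing regulator QKI, and 3 groups given a short interfering RNA (siRNA), which targeted QKI in 1 group, hnRNP A1 in another and nothing in the last. Every array was deposited both at the gene and at the exon level, so the 18 arrays stand as 36 listed samples. All groups were grown in medium conditioned by B104 cells. The protocol text gives a lipid transfection for every sample, the untreated ones included, while their labels call those cells untransfected. The labels do not say whether the stable line is 1 clone or a pool, nor which promoter drives the hairpin or which drug selected the cells. They call the 3 arrays of a group biological replicates without saying which cultures they came from, so the p-values measure a spread between arrays. In the main fit that spread was estimated within all 6 groups together, not within the 2 compared groups alone.

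An shRNA is transcribed in the cell, cut by Dicer and loaded into an Argonaute complex, a route that it shares with microRNAs. A non-silencing hairpin is meant to use that route without matching a transcript, so that a line carrying it controls for integration, drug selection and the load on the small RNA machinery. Oligodendrocyte progenitors divide under growth factors, and on leaving the cycle they switch on genes of myelin and of the synthesis of cholesterol, a main lipid of myelin.

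Lineage markers of the labelled cells were high, with 1 exception. Values are log2 intensities, and the array medians ran from 3.77 to 4.18. On the 6 compared arrays Olig1, a transcription factor of the lineage, lay between 9.17 and 10.50, Sox10 between 9.48 and 10.01 and Nkx2-2 between 8.36 and 9.52, while Cspg4, which encodes the progenitor antigen NG2, was near the array medians at 3.34 to 3.78. Olig2 and Pdgfra were not analysed here, as no feature carried 1 symbol for them. Of other cell types, the 5 microglial markers (Aif1, Itgam, Csf1r, Cx3cr1 and Ptprc) lay at 3.06 to 3.93 and the 5 measured fibroblast and pericyte markers at 2.85 to 4.87, none of them called. The defining astrocyte markers Aqp4 and Gja1 stayed at 2.71 to 3.41. Gfap reached 6.62 and 6.76 on untreated arrays 1 and 2 but 4.64 on untreated array 3, beside 3.66, 4.29 and 4.89 in the line.

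Some arrays stood apart from their groups. Untreated arrays 1 and 2 correlated at 0.991 with each other over all clusters, whereas untreated array 3 correlated with them at 0.969 and 0.971 and lay closest to a QKI siRNA array (0.980). QKI shRNA array 3 correlated at 0.962 and 0.958 with its own group and at 0.976 and 0.977 with untreated arrays 1 and 2. Array 1 of the non-silencing line correlated at 0.974 and 0.978 with arrays 2 and 3, which correlated at 0.989. With untreated array 3 this array correlated at 0.976, so the outlying arrays of the compared groups were about as close to each other as to their own groups. In all, 7 of the 18 arrays lay closest to an array of another group. Qki, the target in the knockdown groups, measured 11.85, 11.63 and 10.84 in untreated cells, 10.90, 11.01 and 10.99 in the non-silencing line and 10.65, 10.35 and 11.14 in the QKI shRNA line. Untreated array 3 was thus as low in Qki as the non-silencing line, and QKI shRNA array 3 was higher than it. The difference between line and untreated cells, -0.48 ± 0.22 (log2, limma's standard error, adjusted p = 0.327), was not called, and without untreated array 3 it was -0.78 (adjusted p = 0.0304).

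In the fit over all arrays 616 clusters, or 3.26%, differed between the line and untreated cells (limma with Benjamini-Hochberg adjustment, adjusted p under 0.05). Of these, 468 were higher in the line (2.48% of those tested) and 148 lower (0.783%). Their median absolute change was 0.85 on the log2 scale, and 201 passed 2-fold, 144 of them upwards. The median change over all clusters was 0.06. The balance of directions depended on the scaling: 76.0% of the calls were higher with the deposited values and 51.0% after quantile normalization, which left 289 higher and 278 lower. The 3 and 3 arrays did not overlap for 3908 clusters (20.7%), 612 of the 616 called ones among them. Leaving out 1 array changed the count strongly. Without untreated array 1 or 2 it was 159 or 163, without array 2 or 3 of the line 262 or 180, without array 1 of the line 433 and without untreated array 3 it was 897. There were 115 clusters, 88 higher and 27 lower, that were called in all 6 of these fits as well, and a call is described below as held where it was. Of the 68 called genes named by rule 20 held, and 16 of these were also called under every other setting tried. Of the other 48, 46 were lost in at least 1 further setting as well, 44 of them after median centring of the arrays and 32 when the 6 compared arrays were fitted alone. Of the 13206 genes with a cluster of 1 symbol, 551 (4.17%) were called, 428 higher and 123 lower, and 61.4% had a positive difference. The counts for gene groups below are read against these shares. Counts per group are descriptions, and no group was tested as a set.

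**Figure D1:**
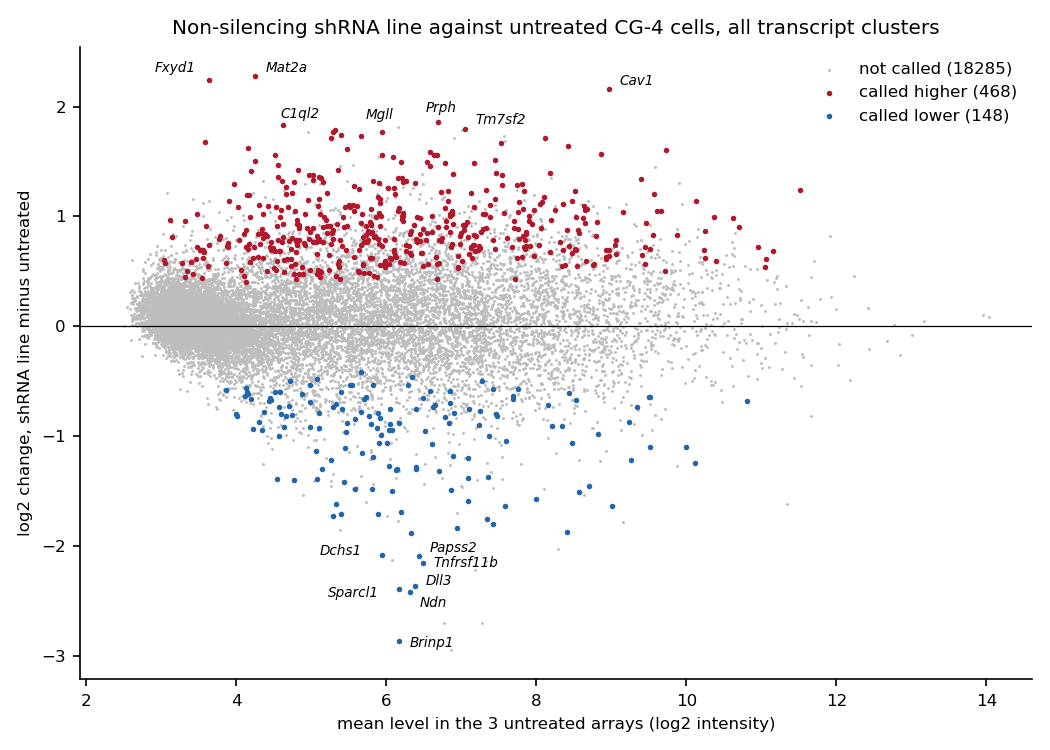
Log2 change between the non-silencing shRNA line and untreated cells (vertical axis) against the mean log2 intensity of the 3 untreated arrays (horizontal axis), 1 point per transcript cluster. The 468 clusters called higher are red, the 148 called lower blue and the rest grey, and the 7 genes with the largest changes in each direction among the named genes carry labels.

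The genes that rose most came from several unrelated families. Fxyd1, which encodes a small regulator of the sodium pump, measured 6.43, 5.37 and 5.84 in the line and 3.57, 3.67 and 3.67 in untreated cells, a change of 2.24 ± 0.27 (adjusted p = 0.000859). Its untreated level lay at or below the array medians. Prph, which encodes the intermediate filament protein peripherin, measured 8.73, 8.44 and 8.49 against 6.48, 6.62 and 6.98 (1.86 ± 0.24, adjusted p = 0.00112). Tspan17, a tetraspanin gene, stood at 7.48, 7.09 and 7.61 against 5.64, 5.38 and 5.96 (1.73 ± 0.20, adjusted p = 0.000859). In each of these genes every array of the line lay above every untreated array, and all 3 calls held. C1ql2, which encodes a secreted C1q-like protein (1.78 ± 0.26), and Rabac1, which encodes a receptor for prenylated Rab proteins (1.67 ± 0.26), held too, although C1ql2 was not called when the 6 compared arrays were fitted alone (adjusted p = 0.0612). Rabac1 was also high in the siRNA groups, at means of 8.54 to 8.81, beside 9.20 in the line and 7.53 in untreated cells.

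Further large rises had calls that did not hold. Mat2a, which encodes the enzyme that makes S-adenosylmethionine, measured 6.41, 6.24 and 6.95 in the line and 3.32, 3.66 and 5.78 in untreated cells. Its change of 2.28 ± 0.58 (adjusted p = 0.0416) was 3.04 without untreated array 3, and its adjusted p reached 0.202 with another array left out. Cav1, which encodes the coat protein of caveolae, measured 11.62, 10.93 and 10.84 against 8.33, 8.66 and 9.91 (2.16 ± 0.45, adjusted p = 0.0177). Its call was lost without array 1 of the line or untreated array 1 or 2, with an adjusted p of up to 0.0903. Mgll, the gene of monoacylglycerol lipase, rose by 1.77 ± 0.35, a call lost without array 3 of the line or untreated array 1 (adjusted p up to 0.0738), and Pnlip, the gene of pancreatic lipase, by 1.61 ± 0.36. Pnlip measured 11.23, 11.42 and 11.38 against 9.80, 10.01 and 9.39, without overlap, yet it was not called with any 1 array left out (adjusted p up to 0.0908). It was called when the 6 compared arrays were fitted alone, but not after quantile normalization or median centring. Cryab, a small heat shock protein gene, differed by 1.74 ± 0.44 (adjusted p = 0.0401) and was at 1.28 (adjusted p = 0.103) without untreated array 3. Tmem255a (1.71 ± 0.33) and Lpar1, a receptor for lysophosphatidic acid (1.64 ± 0.36), rose on all 3 arrays of the line, with adjusted p of up to 0.0521 and 0.0838 when 1 array was left out. With the 6 compared arrays fitted alone Lpar1 was called and Tmem255a was not.

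Ndn and Dchs1 fell to the level of the array medians. Ndn encodes necdin, a growth-restraining protein of neurons whose gene is imprinted, so that the paternal copy alone is active. It measured 3.85, 3.97 and 3.85 in the line and 6.42, 6.03 and 6.49 in untreated cells, a change of -2.42 ± 0.26 (adjusted p = 0.000684). Dchs1, which encodes a giant cadherin that binds Fat4 on neighbouring cells, measured 3.73, 3.80 and 4.07 against 6.14, 5.61 and 6.09 (-2.08 ± 0.26, adjusted p = 0.000920). Both calls held. Of 23 measured imprinted genes Ndn was the 1 called. Calcr, which is imprinted in the mouse brain, measured 4.21, 3.82 and 3.71 against 7.21, 7.15 and 6.22, without overlap but with a wide spread in the other groups (-2.95 ± 0.86, adjusted p = 0.0759). Magel2, like Ndn a member of the MAGE family, differed by -0.10.

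Further genes were lower in the line. Brinp1, a gene of nervous tissue named for its induction by BMP and retinoic acid, measured 2.97, 3.60 and 3.37 against 6.83, 7.02 and 4.67. The change of -2.86 ± 0.49 (adjusted p = 0.00707) held, and it was -3.61 without untreated array 3, which lay between the groups. It was not called when the 6 compared arrays were fitted alone (adjusted p = 0.0676). Papss2, which encodes the enzyme that makes the sulphate donor for proteoglycans, fell by 2.09 ± 0.28 to 4.28, 4.41 and 4.37 (adjusted p = 0.00131). Its mean was also low in non-silencing siRNA (4.70), QKI siRNA (4.18) and QKI shRNA cells (3.82), and was 5.68 in hnRNP A1 siRNA cells. Mgst1, a glutathione transferase gene, fell by 1.69 ± 0.25 (adjusted p = 0.00239). Axl, a receptor tyrosine kinase gene, measured 4.60, 4.83 and 4.86 against 6.06, 5.97 and 6.06 (-1.27 ± 0.15, adjusted p = 0.000859). These 3 calls held as well. Sparcl1, which encodes the matrix protein hevin, measured 3.57, 3.82 and 3.93 against 7.24, 6.77 and 4.50. Apoe, the main lipid carrier of brain glia, measured 4.09, 4.72 and 4.55 against 6.97, 7.11 and 4.92. In both genes untreated array 3 sat next to the line, and without it the changes grew from -2.39 to -3.23 for Sparcl1 and from -1.88 to -2.59 for Apoe. With any other array left out neither was called (adjusted p up to 0.199 and 0.215). Il33, an interleukin gene, went the other way: it measured 3.46, 3.72 and 3.48 in the line and 4.72, 4.86 and 6.27 in untreated cells (-1.73 ± 0.44, adjusted p = 0.0413). Without untreated array 3 its change was -1.23 (adjusted p = 0.105). Tnfrsf11b, which encodes the decoy receptor osteoprotegerin (-2.15 ± 0.48), Ly6e (-1.83 ± 0.41) and Dok6 (-1.71 ± 0.39) fell without overlap, but their adjusted p reached 0.0990, 0.101 and 0.141 with 1 array left out. With the 6 compared arrays fitted alone Tnfrsf11b and Ly6e were called and Dok6 was not. Non-silencing siRNA cells had a Tnfrsf11b mean of 4.61, near the 4.34 of the line, and the knockdown groups had 5.17 to 5.57.

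**Figure D2:**
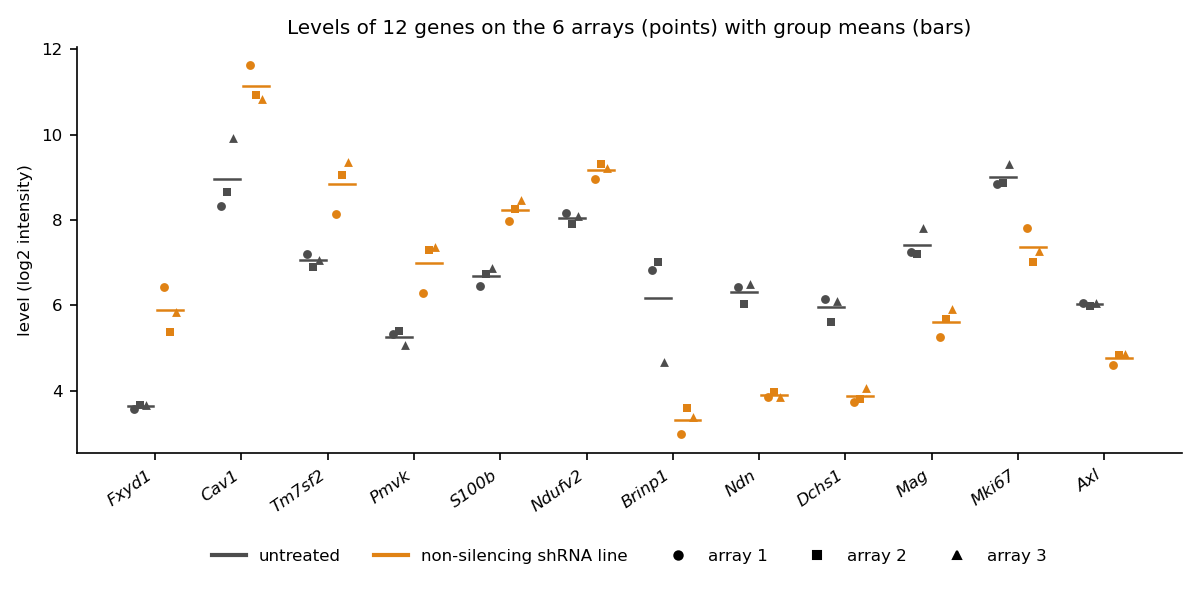
Log2 intensity (vertical axis) of 12 genes on the 3 untreated arrays (grey) and the 3 arrays of the non-silencing shRNA line (orange), with the array number as the symbol and the group mean as a bar. The groups do not overlap in any of the 12 genes, and untreated array 3 (triangle) lies nearest to the line in Cav1 and Brinp1.

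Genes of cholesterol synthesis were the list with the highest median. Of 17 measured members 16 had a positive difference and 4 were called, all higher, with a list median of 0.78 beside 0.06 over all genes. The called genes act at different steps. Pmvk and Mvd encode consecutive kinase and decarboxylase steps of the mevalonate route, and Tm7sf2 and Ebp encode a sterol reductase and a sterol isomerase late in the pathway. Tm7sf2 measured 8.14, 9.05 and 9.36 in the line and 7.21, 6.89 and 7.05 in untreated cells (1.80 ± 0.23, adjusted p = 0.00112). Pmvk measured 6.28, 7.30 and 7.36 against 5.33, 5.40 and 5.07 (1.72 ± 0.21, adjusted p = 0.000979). Ebp measured 6.65, 7.22 and 7.40 against 5.17, 5.29 and 5.98 (1.61 ± 0.38, adjusted p = 0.0318). Mvd measured 7.97, 9.15 and 9.46 against 7.10, 7.26 and 8.05 (1.39 ± 0.35, adjusted p = 0.0402), with array 1 of the line below untreated array 3. In all 4 genes array 1 of the line was the lowest of its group. The calls of Tm7sf2 and Pmvk held, and those of Ebp and Mvd were lost without array 2 or 3 of the line or untreated array 1 or 2 (adjusted p up to 0.140 and 0.182). With array 1 of the line and untreated array 3 both left out, a setting chosen after seeing the data, Mvd was at 2.13.

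Members that were not called included Acat2, the gene of a thiolase at the start of the route, at 8.91, 9.63 and 9.28 against 7.70, 7.34 and 7.72 (1.69 ± 0.48, adjusted p = 0.0710). Dhcr7, which encodes the last reductase, differed by 1.14 ± 0.32 (adjusted p = 0.0655). Cyp51 (0.25) and Msmo1 (-0.03), which encode the enzymes that remove the methyl groups of lanosterol, were near 0, as was Srebf2, the transcription factor gene of the pathway (0.07). The list mean per array was 8.98, 9.90 and 9.98 in the line and 8.63, 8.69 and 8.90 in untreated cells. Array 1 of the line was thus close to untreated array 3, and without it the median rose to 1.10 with 7 members called. Without array 3 of the line the median was 0.51. The other groups had list means between 8.11 and 9.11, all below arrays 2 and 3 of the line.

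The promoter windows of the called members are shown to give the sequence in front of these genes, 250 bases before to 50 bases after the start site, from RefSeq for the rat assembly GRCr8. A window was at hand for 3 of the 4 called genes, and for 14 of the 17 measured members. A pair of short motifs was counted on both strands: CCAAT (or ATTGG), the box bound by NF-Y, and GGGCGG (or CCGCCC), the box bound by Sp1-type factors. The motifs can share bases where they abut. At least 1 CCAAT box stood in a window of 11 of the 14 members, and at least 1 GGGCGG box in a window of 12. Of all 33469 promoter windows 37.5% held a CCAAT box and 33.1% a GGGCGG box. Members were counted by gene, with any window of the gene sufficing, and the background by single window. The shares are therefore not in like units. Both motifs were chosen knowing that promoters of this pathway carry them, and a match is a description of the letters, not a bound site. Capitals mark the CCAAT boxes on either strand. Tm7sf2 lies on chromosome 1 (chr1:212789492-212789791, minus strand), Ebp on chromosome X (chrX:16971212-16971511, plus strand) and Mvd on chromosome 19 (chr19:67414925-67415224, minus strand), each read in the direction of the gene.
Tm7sf2: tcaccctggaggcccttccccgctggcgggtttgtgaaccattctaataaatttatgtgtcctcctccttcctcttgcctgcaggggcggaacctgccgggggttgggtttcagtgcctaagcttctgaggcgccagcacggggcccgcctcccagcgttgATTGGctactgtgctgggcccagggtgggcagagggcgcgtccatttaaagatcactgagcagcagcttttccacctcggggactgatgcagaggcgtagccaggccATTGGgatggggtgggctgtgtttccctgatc
Ebp: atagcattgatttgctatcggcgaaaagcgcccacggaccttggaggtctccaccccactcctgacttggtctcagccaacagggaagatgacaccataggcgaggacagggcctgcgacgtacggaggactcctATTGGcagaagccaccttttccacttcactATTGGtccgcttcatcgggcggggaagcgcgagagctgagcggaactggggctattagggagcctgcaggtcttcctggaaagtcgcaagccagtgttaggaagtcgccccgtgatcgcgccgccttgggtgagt
Mvd: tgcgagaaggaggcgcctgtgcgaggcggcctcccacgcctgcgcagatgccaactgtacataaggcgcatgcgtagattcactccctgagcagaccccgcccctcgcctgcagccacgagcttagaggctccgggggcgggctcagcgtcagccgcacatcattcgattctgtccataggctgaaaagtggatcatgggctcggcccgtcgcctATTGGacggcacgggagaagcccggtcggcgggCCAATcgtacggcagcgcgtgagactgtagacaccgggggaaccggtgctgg

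Each of these windows held a pair of CCAAT boxes. Counted from the start site to the first base of the match, those of Tm7sf2 stood at -89 and 19, those of Ebp at -115 and -85 and those of Mvd at -35 and -2. A GGGCGG box stood at -166 in Tm7sf2, at -69 in Ebp and at -153 and -115 in Mvd.

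Genes of the respiratory chain were higher by smaller amounts. Of 23 measured members 21 had a positive difference, 5 were called, all higher, and the list median was 0.49. The calls spread over the complexes: Ndufv1 and Ndufv2 belong to complex I, Sdha to complex II, Uqcrfs1 to complex III and Atp5f1c to the ATP synthase. Ndufv2 measured 8.96, 9.31 and 9.22 in the line and 8.17, 7.90 and 8.08 in untreated cells (1.11 ± 0.15, adjusted p = 0.00158), and its call held. Uqcrfs1 measured 8.44, 8.54 and 8.50 against 7.79, 7.02 and 7.35 (1.11 ± 0.20, adjusted p = 0.00924). Its call was lost without untreated array 2, the lowest of that group (adjusted p = 0.0540), and medians of its exon-level probe sets gave 0.57 (adjusted p = 0.466). Ndufv1 measured 9.68, 9.63 and 9.66 against 8.86, 8.86 and 9.16 (0.69 ± 0.14, adjusted p = 0.0160), Sdha differed by 0.66 ± 0.17 (adjusted p = 0.0413) and Atp5f1c by 0.65 ± 0.15 (adjusted p = 0.0259). Ndufv1 was lost without array 3 of the line or untreated array 1 or 2 (adjusted p up to 0.0818), and Sdha was called in 1 of the 6 fits with an array left out (up to 0.182). Cox7b (-0.68) and Atp5f1a (-0.29) were the members with a negative difference. Averaged over its members, the list stood at 8.96, 8.87 and 8.96 in the line and at 8.56, 8.37 and 8.53 in untreated cells, without overlap, and the median stayed between 0.40 and 0.55 with each array left out, with 1 to 6 members called.

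Stress genes were mostly positive with few calls. Of 33 measured genes of the unfolded protein and integrated stress responses 30 had a positive difference, with a median of 0.48, and 2 (6.06%) were called, a share near that of all genes. Xbp1, a transcription factor gene of the unfolded protein response, measured 9.32, 9.32 and 9.60 against 8.36, 8.48 and 8.87 (0.85 ± 0.21, adjusted p = 0.0392). Sdf2l1, a gene of an endoplasmic reticulum chaperone complex, measured 7.30, 6.91 and 7.41 against 5.76, 5.43 and 6.53 (1.30 ± 0.29, adjusted p = 0.0250). Neither call held (adjusted p up to 0.175 and 0.119). Ddit4, an inhibitor of mTOR signalling, differed by 1.35 ± 0.40 (adjusted p = 0.0821) and Atf4, the central factor of the integrated response, by 1.09 ± 0.33 (adjusted p = 0.0910). Hspa5, the main chaperone of the endoplasmic reticulum, was at 0.27 and Hsp90b1 at -0.51. The list mean of untreated array 3, 7.66, lay near the 7.78 to 7.92 of the line, while untreated arrays 1 and 2 had 7.21 and 7.25. QKI siRNA and hnRNP A1 siRNA cells had means of 7.79 to 8.42, non-silencing siRNA cells 7.55 to 7.79 and the QKI shRNA line 6.73 to 7.67. The Xbp1 mean was 9.36 in non-silencing siRNA cells, near the 9.42 of the line.

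Among 27 measured lysosomal genes 3 were called, all higher, with a list median of 0.24. Npc2, which encodes the soluble cholesterol carrier of the lysosome, measured 7.07, 7.06 and 7.47 against 6.21, 6.19 and 6.07 (1.05 ± 0.16, adjusted p = 0.00328), and its call held. Ctsd, a protease gene (0.71 ± 0.17, adjusted p = 0.0315), and Psap, which encodes the precursor of the saposins (0.54 ± 0.14, adjusted p = 0.0399), rose less; Ctsd was called in 1 of the 6 fits with an array left out and Psap in none (adjusted p up to 0.140 and 0.160). After quantile normalization Psap was at 0.32. Of 29 glycolytic and hypoxia-linked genes 2 were called, both higher: Slc2a3, a glucose transporter gene (1.42 ± 0.28, adjusted p = 0.0149), and Eno2, an enolase gene (1.04 ± 0.24, adjusted p = 0.0269). Neither held, with adjusted p of up to 0.0764 and 0.136. In fatty acid and glycerolipid synthesis the 1 call of 21 was Dgat1, which encodes the last enzyme of triglyceride synthesis (0.62 ± 0.13, adjusted p = 0.0224), lost in 4 of those fits (up to 0.0896).

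**Figure D3:**
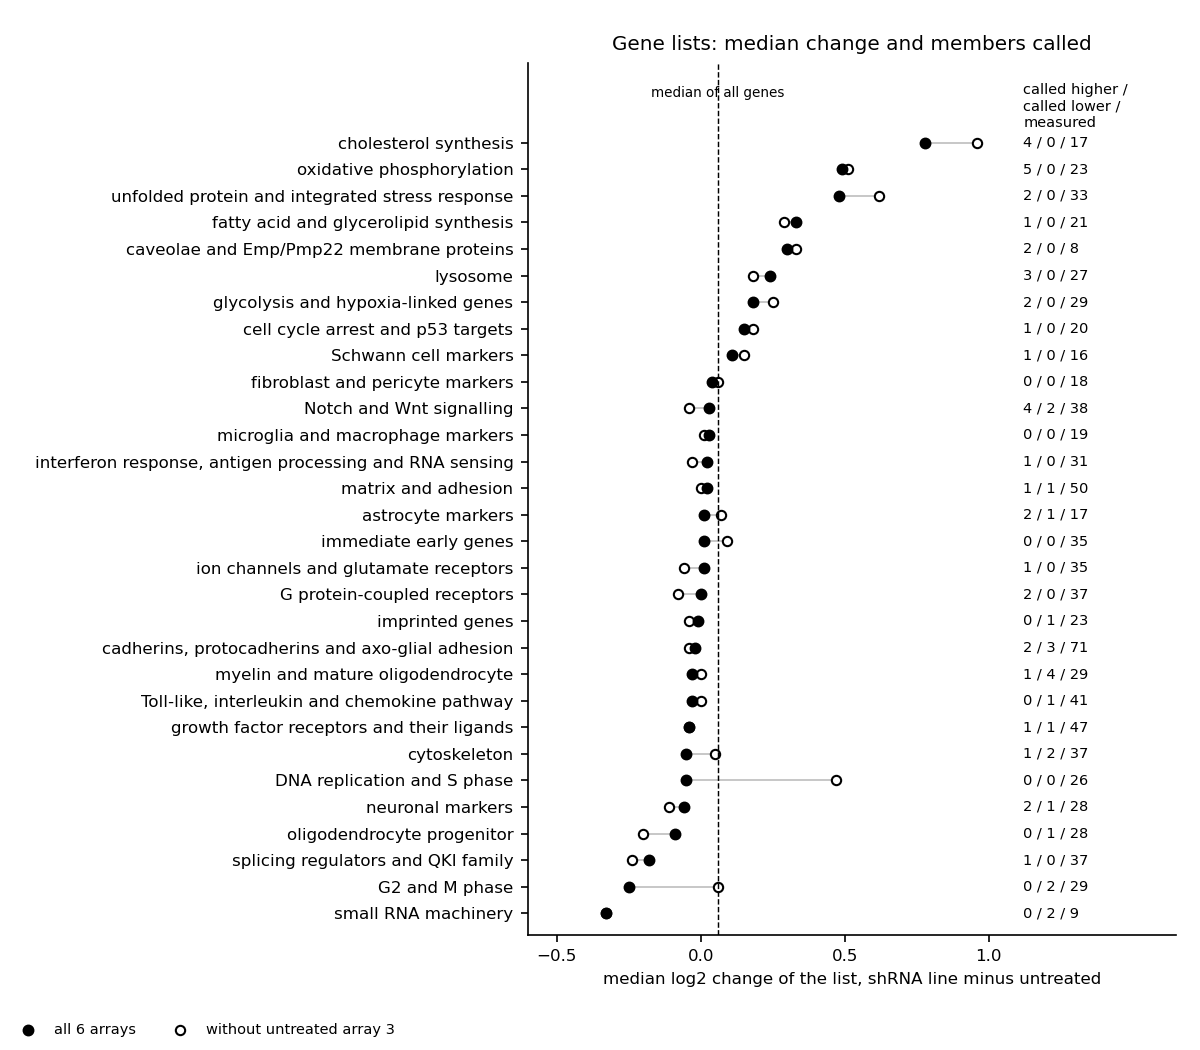
Median log2 change of 30 gene lists between the non-silencing shRNA line and untreated cells (horizontal axis) with all 6 arrays (filled) and without untreated array 3 (open), beside the number of members called higher, called lower and measured. Cholesterol synthesis has the highest median, 0.78, small RNA machinery the lowest, -0.33, and the replication list moves from -0.05 to 0.47 without untreated array 3.

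Cell cycle genes moved with single arrays. Of 29 measured genes of G2 and M phase 2 were called, both lower. Mki67, the proliferation marker, measured 7.81, 7.02 and 7.27 in the line and 8.85, 8.86 and 9.32 in untreated cells (-1.64 ± 0.34, adjusted p = 0.0182). Cenpf, a kinetochore gene, measured 7.45, 6.86 and 6.86 against 8.56, 8.45 and 8.68 (-1.51 ± 0.27, adjusted p = 0.00802), and its call held but was lost with medians of exon-level probe sets (-1.41, adjusted p = 0.0938), whereas Mki67 was lost without array 2 or 3 of the line or untreated array 1 or 2 (adjusted p up to 0.0723). Both genes were lower still in the non-silencing, QKI and hnRNP A1 siRNA groups. Mki67 had means of 7.04, 6.48 and 6.25 there, beside 7.37 in the line. Cenpf had means of 6.51, 6.16 and 5.92, beside 7.06 in the line. In the QKI shRNA line the means were 8.59 for Mki67 and 8.58 for Cenpf. Of the 29 members 21 had a negative difference, and 4 were lower and 0 higher without overlap. Of all 13206 genes 860 were lower and 2181 higher without overlap. The uncalled members ran from -1.25 for Cenpe, another kinetochore gene, to 0.46 for Cdc20, an activator of the anaphase-promoting complex. The list median was -0.25, but it was -0.49 without array 1 of the line, with 0 members positive, and 0.06 without untreated array 3, with 17 positive. List means were 7.71, 6.74 and 6.78 in the line and 7.18, 7.05 and 7.94 in untreated cells, so array 1 of the line and untreated array 3 stood highest. The 26 replication genes, of which none was called by limma and 0 had an unadjusted p under 0.05, showed the same arrays: 7.56, 6.42 and 6.32 in the line and 6.31, 6.29 and 7.70 in untreated cells. Their median ran from -0.40 without array 1 of the line to 0.47 without untreated array 3. Of the arrest genes Cdkn2a, which encodes cell cycle inhibitors, was the 1 call of 20, at 5.81 to 6.22 against 5.10 to 5.51 (0.75 ± 0.15, adjusted p = 0.0149). It was lost without array 3 of the line or untreated array 2 (adjusted p up to 0.0802), and medians of exon-level probe sets gave 0.24 (adjusted p = 0.665).

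**Figure D4:**
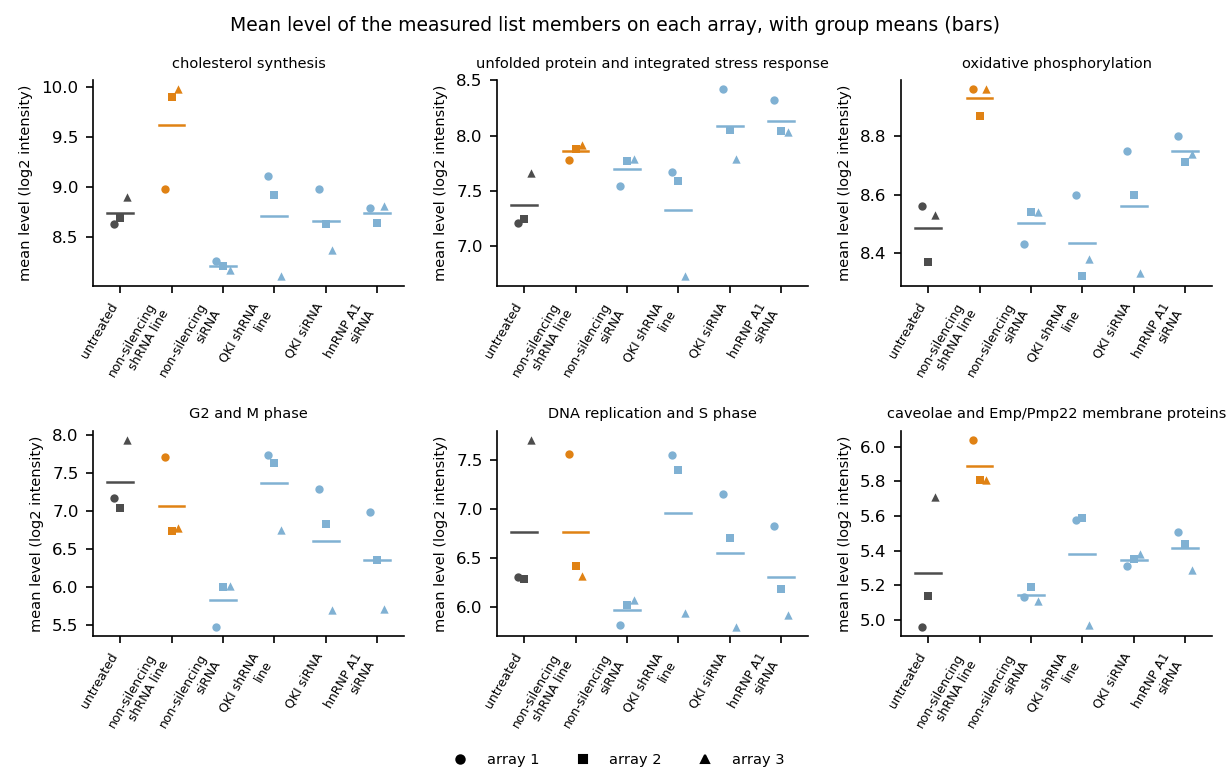
Mean log2 intensity of the measured members of 6 gene lists on each of the 18 arrays (vertical axis), by group (horizontal axis), with the array number as the symbol and the group mean as a bar; the vertical axes do not start at 0. Untreated cells are grey and the non-silencing shRNA line orange; untreated array 3 and array 1 of the line are the highest of their groups in both cell cycle lists.

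Myelin genes were split. Of 29 measured members 4 fell and 1 rose, 17.2% called, with a list median of -0.03. In bulk samples fewer cells of a type and less RNA per cell cannot be told apart. Mog, which encodes a protein of the outer myelin surface, measured 3.88, 3.93 and 3.96 in the line and 5.16, 5.27 and 4.74 in untreated cells (-1.13 ± 0.19, adjusted p = 0.00622). Enpp6, which encodes a choline phosphodiesterase of newly formed oligodendrocytes, measured 3.73, 3.52 and 3.79 against 5.19, 5.19 and 4.84 (-1.39 ± 0.19, adjusted p = 0.00161), and its call held; medians of exon-level probe sets gave -2.60. Mag, which encodes an adhesion protein of the inner myelin layer, measured 5.26, 5.68 and 5.90 against 7.24, 7.21 and 7.80 (-1.81 ± 0.43, adjusted p = 0.0323). Nfasc, which encodes the neurofascins of axon and paranode, measured 6.39, 6.40 and 6.80 against 8.54, 8.59 and 8.08 (-1.87 ± 0.44, adjusted p = 0.0315). Mag and Nfasc did not overlap between the groups, but Mag was not called in any fit with 1 array left out (adjusted p up to 0.101) and Nfasc was called without untreated array 3 alone. Both were called when the 6 compared arrays were fitted by themselves, and neither was after median centring. The riser was Lpar1, given above. Mbp, the gene of myelin basic protein, measured 8.02, 9.91 and 9.89 against 8.69, 9.09 and 8.79, with array 1 of the line the lowest of all 6 (0.42 ± 0.70, adjusted p = 0.881). Cnp differed by 0.55 (adjusted p = 0.507) and Mobp by 0.07.

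Progenitor genes showed 1 call among 28, Dll3. It encodes a divergent ligand of the Notch pathway and measured 3.71, 4.24 and 4.12 in the line against 7.02, 6.72 and 5.43 in untreated cells (-2.36 ± 0.59, adjusted p = 0.0392), lost with any array but untreated array 3 left out (adjusted p up to 0.177). Sox10, Nkx2-2, Olig1, Vcan and Cspg4 lay between -0.17 and 0.34, none of them called. In the Notch and Wnt list 4 genes rose and 2 fell of 38. Jag1, another Notch ligand, measured 8.35, 7.89 and 7.90 against 6.29, 6.08 and 7.39 (1.46 ± 0.32, adjusted p = 0.0230), opposite to Dll3, and was called without untreated array 3 but with no other array left out (adjusted p up to 0.109). Lef1, a transcription factor of Wnt signalling, measured 7.27, 6.06 and 5.92 against 8.11, 7.71 and 8.18 (-1.58 ± 0.29, adjusted p = 0.0104), a call lost without array 3 of the line or untreated array 1 (up to 0.0582). Wif1, a secreted Wnt inhibitor, rose by 0.85 ± 0.17 (adjusted p = 0.0146). Id1 (1.32 ± 0.33, adjusted p = 0.0380) and Id4 (1.21 ± 0.23, adjusted p = 0.0108), inhibitors of bHLH factors that respond to BMP signals, rose, although Id1 was not called with any array left out (up to 0.145), while Id3 at 1.16 ± 0.66 was not called (adjusted p = 0.448). Notch1 (0.02), Hes1 (-0.07) and Axin2 (0.04) were near 0.

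Markers shared with other glia and with neurons changed in both directions. S100b, a calcium-binding protein gene of astrocytes and oligodendrocyte lineage cells, measured 7.97, 8.26 and 8.47 against 6.44, 6.72 and 6.87 (1.56 ± 0.27, adjusted p = 0.00794), and its call held. Gpr37l1, a receptor gene of astrocytes, rose by 1.56 ± 0.40 (adjusted p = 0.0466), and Slc1a3, the gene of the glutamate transporter GLAST, fell by 1.30 ± 0.33 (adjusted p = 0.0428). With 1 array left out their adjusted p reached 0.162 and 0.180. Slc1a3 was as low in the siRNA groups, at means of 4.71 to 5.05 beside 5.10 in the line. Untreated cells had 6.39 and the QKI shRNA line 6.52. Aqp4, Gja1 and Slc1a2 were not called, nor was Gfap (-1.72 ± 0.57, adjusted p = 0.121). In all, 2 of 17 astrocyte markers were called higher and 1 lower. Of 28 neuronal markers Prph and Nefl were higher and Brinp1 lower. Nefl, the light neurofilament gene, measured 5.70, 5.14 and 4.95 against 3.81, 3.83 and 4.28 (1.29 ± 0.20, adjusted p = 0.00286), and its call held. Of the markers that define neurons, Snap25 and Stmn2 lay at 3.31 to 3.86, Syt1 at 5.27 to 5.74 and Tubb3 at 5.24 to 6.16, none of them called. Pmp22, a Schwann cell marker and tetraspan membrane protein gene, measured 8.45, 7.61 and 7.04 against 5.63, 5.79 and 7.18 (1.50 ± 0.37, adjusted p = 0.0376), with overlap through untreated array 3 and an adjusted p of up to 0.184 with 1 array left out. It was the 1 call of 16 Schwann cell markers. Of the markers that define Schwann cells, Cdh19 was lower without overlap (-0.65), Prx differed by -0.18 and Pou3f1 by 0.20, none of them called.

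Adhesion and cytoskeletal genes were called in both directions, at 7.04% and 8.11% of the measured members. Of 71 cadherin, guidance and axo-glial adhesion genes 2 rose (Pcdh10 and Lrrtm3) and 3 fell (Nfasc, Sema3e and Sema6d). Sema3e, a secreted guidance cue, measured 4.82, 5.62 and 5.69 against 7.35, 7.12 and 6.14 (-1.49 ± 0.36, adjusted p = 0.0350). Sema6d measured 4.64, 4.54 and 4.73 against 6.31, 6.22 and 4.93 (-1.19 ± 0.29, adjusted p = 0.0360), and without untreated array 3, the low one, its change was -1.63. Sema3e and Sema6d were called without untreated array 3 but with no other array left out (adjusted p up to 0.169 and 0.182), and Lrrtm3 in none of these fits (up to 0.185). With medians of exon-level probe sets Lrrtm3 was at 0.48 (adjusted p = 0.373) beside 0.77 ± 0.20. Dpysl3, which encodes a collapsin response mediator protein that acts on the cytoskeleton, measured 9.28, 8.58 and 8.74 against 10.04, 9.87 and 10.44 (-1.25 ± 0.18, adjusted p = 0.00224), and its call held, with an adjusted p of 0.0529 when the 6 compared arrays were fitted alone. Tppp3, a tubulin-binding protein gene, fell by 0.81 ± 0.21, and Gsn, the gene of the actin-severing protein gelsolin, rose by 0.74 ± 0.17. Neither was called with any array left out (up to 0.159 and 0.112). Non-silencing siRNA cells were near the line in Dpysl3 (means of 9.12 and 8.87) and in Tppp3 (3.77 and 3.93). QKI siRNA and hnRNP A1 siRNA cells had means of 9.66 and 9.95 for Dpysl3 and of 4.29 and 5.68 for Tppp3. Mmp16, a membrane-bound metalloproteinase gene, rose by 0.57 ± 0.15 (adjusted p = 0.0456, up to 0.173 with an array left out), but by 0.26 with medians of exon-level probe sets and 0.37 after quantile normalization, uncalled in both. Besides it Sparcl1 was the 1 call among 50 matrix genes. Ntrk2, the receptor gene for BDNF, rose by 0.64 ± 0.12 (adjusted p = 0.0118), and Grin3a, an NMDA receptor subunit gene, by 1.11 ± 0.24 (adjusted p = 0.0230), with adjusted p of up to 0.0522 and 0.0838 with an array left out.

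Genes of the small RNA machinery and of RNA sensing include steps that a hairpin passes, though whether Drosha cuts this hairpin is not known here. Of 9 measured genes of the small RNA machinery 7 had a negative difference and 2 fell, with a list median of -0.33. Drosha, the nuclease that cuts microRNA precursors in the nucleus, measured 7.26, 7.08 and 7.23 in the line and 7.87, 7.71 and 7.70 in untreated cells (-0.57 ± 0.15, adjusted p = 0.0498). Tnrc6a, a partner of Argonaute proteins, measured 7.04, 6.48 and 6.48 against 7.54, 7.61 and 7.24 (-0.80 ± 0.18, adjusted p = 0.0233). Neither gene overlapped between the groups, and neither call held: Drosha was not called in any fit with 1 array left out (adjusted p up to 0.199), and Tnrc6a reached 0.102. Xpo5, which encodes the export factor for hairpin precursors, was at 0.17, Ago3 at -0.33 and Ago4 at -0.09, none of them called. Of 31 interferon, antigen processing and RNA sensing genes Ifi27 was the 1 call. It measured 8.29, 8.71 and 8.96 against 7.11, 7.40 and 6.99 (1.49 ± 0.27, adjusted p = 0.00893) and was lost without array 3 of the line (adjusted p = 0.0516). Isg15 (0.02), Mx1 (0.02), Ifit1 (0.20), Ifit3 (0.13) and Rsad2 (0.03), which respond to interferon, were not called. In the Toll-like, interleukin and chemokine list Il33 was the 1 call of 41, and of 35 immediate early genes limma called 0, with 5 at an unadjusted p under 0.05.

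Splicing regulators, the subject of the knockdown groups, gave 1 call of 37. Hnrnpr, an hnRNP gene, measured 9.26, 8.40 and 8.17 against 7.65, 7.38 and 7.70 (1.03 ± 0.25, adjusted p = 0.0345) and was lost without array 1 or 2 of the line or untreated array 1 or 2 (adjusted p up to 0.143). Hnrnpa1, the target of the other knockdown, measured 8.09, 8.31 and 7.79 against 8.67, 8.50 and 7.94 (-0.31 ± 0.19, adjusted p = 0.504). Nova1 measured 7.34, 7.05 and 6.91 against 9.16, 9.13 and 7.63 (-1.54 ± 0.48, adjusted p = 0.103), and 25 of the 37 members had a negative difference, with a list median of -0.18.

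A second stable line allowed a comparison on other arrays. The QKI shRNA line against non-silencing siRNA cells shares no array with the comparison above, although both draw on 1 estimate of spread, and it also contains the loss of QKI and the siRNA transfection. It called 961 clusters (5.08%), 495 of them higher. There were 114 clusters called in both, 18.5% of the 616 and 11.9% of the 961. Of these, 18 went the same way in both lines (6 higher, 12 lower) and 96 opposite ways, 72 of them higher in the non-silencing and lower in the QKI line. Without QKI shRNA array 3 in the second comparison 140 were called in both, 24 the same way and 116 opposite ways. Without untreated array 3 and QKI shRNA array 3, a setting chosen after seeing the data, 374 clusters were called in both, of which 165 went the same way and 209 opposite ways.

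The shared direction was clearest for the losses of Ndn and Dchs1. In the QKI shRNA line Ndn measured 3.73, 3.98 and 3.83, and the 12 arrays without a stable hairpin lay between 5.77 and 7.09. Dchs1 measured 3.83, 4.17 and 4.03 in the QKI line and between 5.27 and 6.55 on those 12 arrays. In the second comparison the changes were -2.74 (adjusted p = 2.35e-05) for Ndn and -1.89 (adjusted p = 0.000518) for Dchs1. Over all clusters, the 6 arrays of the stable lines and the 12 others did not overlap for 50 (0.265%), 22 lower and 28 higher in the lines. Ndn and Dchs1 were the 2 that left a gap of at least 1 on the log2 scale, 1.79 and 1.11. This count, and the choice of Ndn and Dchs1 by their gap, were made after the values were seen.

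Other genes, named here after their values were seen, differed in level between the lines. Axl measured 6.79, 6.60 and 7.05 in the QKI line, above the 5.97 to 6.06 of untreated cells, while the 3 siRNA groups, at means of 4.70, 4.92 and 5.02, lay near the 4.76 of the non-silencing line. Brinp1 was at 7.19, 7.16 and 7.86 in the QKI line, above the means of all other groups. Il33 reached 9.42, 8.97 and 7.95 there, compared with 3.46 to 3.72 in the non-silencing line. S100b stood at 4.46, 4.16 and 5.02 and Pnlip at 5.71, 5.54 and 7.03 in the QKI line, below every other group, while the non-silencing line was above every other group in both genes. Fxyd1 had group means of 3.64 to 4.03 in the 5 other groups and 5.88 in the non-silencing line, and Tm7sf2 6.40 to 7.10 beside 8.85. Mag was low in both lines, with a mean of 4.30 in the QKI line and 5.61 in the non-silencing line, but QKI siRNA cells, at 5.46, were low as well; untreated cells had 7.42, non-silencing siRNA cells 7.14 and hnRNP A1 siRNA cells 6.72. The difference between the lines themselves was not tested here.

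**Figure D5:**
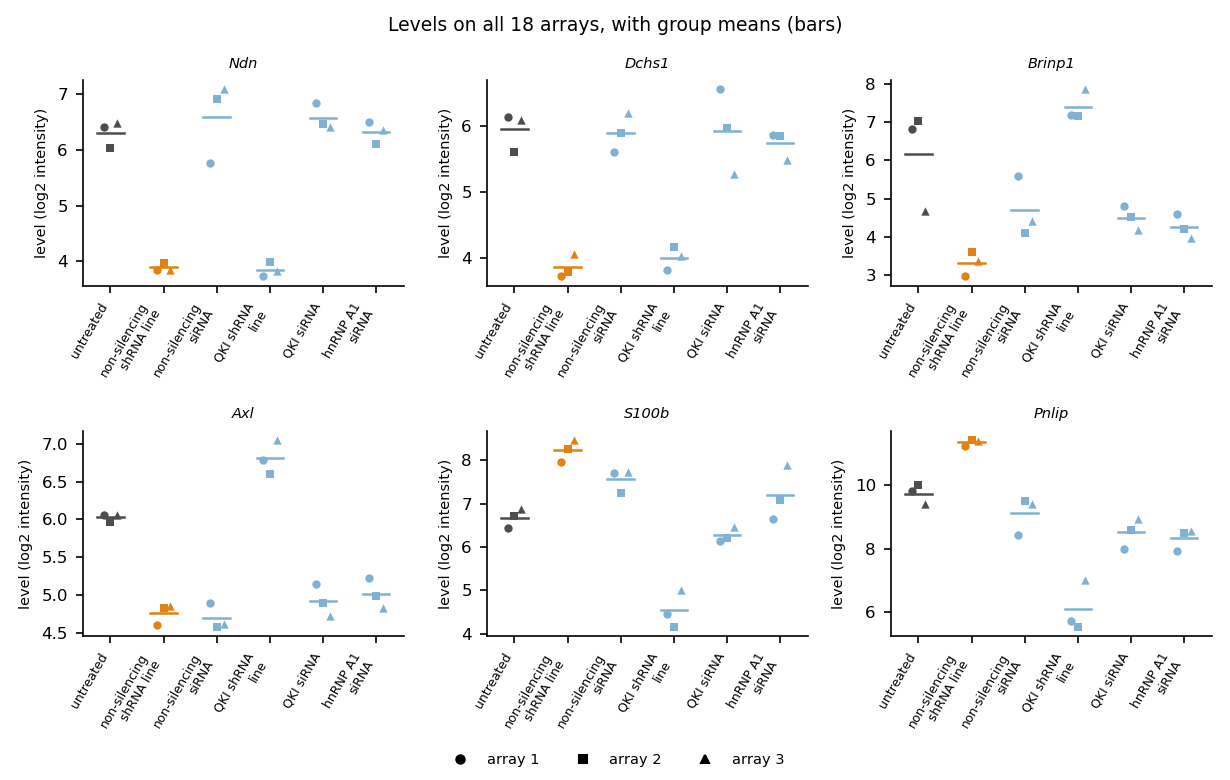
Log2 intensity (vertical axis) of Ndn, Dchs1, Brinp1, Axl, S100b and Pnlip on all 18 arrays by group (horizontal axis), with the array number as the symbol and the group mean as a bar; the vertical axes do not start at 0. Ndn and Dchs1 are low on all 6 arrays of the stable lines, while the lines lie on opposite sides of untreated cells in the other 4 genes.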

How the data were processed

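RNA of CG-4 cells was hybridised to Affymetrix rat exon arrays once ribosomal RNA had been reduced, as the labels' protocols state. The authors deposited log2 values per array for transcript clusters and for exon-level probe sets. RMA and Partek are named in the submitters' processing notes, whereas their versions, the genome build and the annotation were not given in the sources used here. The array medians differ, so the deposited values per cluster do not share 1 distribution. This does not show whether the arrays had been normalized at an earlier step. The number of arrays limits the precision.

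From these values, limma 3.58.1 (lmFit and eBayes, R 4.3.3) was fitted over all 18 gene-level arrays with 1 mean per group. P-values were two-sided and adjusted by Benjamini-Hochberg over 18901 clusters, with calls made where the adjusted p was under 0.05. Every adjusted p in the text is from limma, and ± after a log2 change is its standard error. The procedure was tested on simulated data with independent noise for every cluster and array. Those data held no outlying arrays, so the test cannot show how far single arrays move the counts. Gene names came from the array's platform annotation, in which 13327 clusters carried 1 symbol, 620 several and 4954 none; where clusters shared a symbol, that of the highest mean stood for the gene.

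Named genes were Qki, Hnrnpa1 and Mbp, in each direction the 15 called genes that changed most while the groups did not overlap and the mean reached the 25th percentile, and up to 4 called members per list. Further list members and genes of the second comparison were added as examples after their values were seen. The comparison, the 30 gene lists and the tests were chosen with earlier results of these data known. Alternatives covered the arrays fitted, the scaling, a filter on low values, the variance model, medians of exon-level probe sets for 11455 genes with at least 3 of them, a replicate block and leaving out each array.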

Additional observations from a re-analysis of the deposited data

How the results depend on the processing

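The count of 616 called clusters (468 higher, 148 lower, 201 by at least 2-fold) depended on single arrays and on the scaling. With each of the 6 arrays left out in turn it ran from 159 to 897, with 120 to 628 higher, 31 to 269 lower and 85 to 386 by at least 2-fold; the lowest count was without untreated array 1 and the highest without untreated array 3. Fitting the 6 compared arrays alone gave 241 (182 higher, 59 lower, 126 by 2-fold), median centring 158 (118, 40 and 86), the lowest count of all, and medians of exon-level probe sets 386 (286 higher), over fewer genes. Quantile normalization gave 289 higher and 278 lower. In settings chosen after seeing the data, leaving out array 1 of the line and untreated array 3 gave 223 lower and 311 by 2-fold, and leaving out untreated array 3 and QKI shRNA array 3 gave 1363 (911 higher, 452 lower, 465 by 2-fold). The low-value filter (683), the variance trend (439), robust estimation (608) and leaving out the QKI shRNA arrays (684) stayed within 1.5 times of the count. Deviations of same-numbered arrays of the line and of untreated cells correlated at -0.159, 0.236 and -0.215. These few pairs cannot show whether the replicate numbers pair the arrays. With a replicate block 723 clusters were called, 583 of them among the 616. None of the 71 named genes changed direction under any of these settings, but 44 of them were no longer called after median centring and 20 after quantile normalization. The cause of these shifts was not tested.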

Other observations

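The 50 clusters on which the 6 arrays of both stable lines lay apart from the 12 others held 43 genes with 1 symbol, of which 6 not described above are named here, chosen after their values were seen. Tmprss13, which encodes a membrane-bound serine protease, measured 6.83, 6.35 and 6.44 in the non-silencing line and 7.64, 7.56 and 7.24 in the QKI shRNA line, and 4.20 to 5.96 on the other arrays. It rose by 1.08 on the log2 scale in the non-silencing line (limma, adjusted p = 0.0433) and by 2.66 in the QKI line against non-silencing siRNA cells (adjusted p = 5.91e-05). Ociad1, which encodes a protein of the inner mitochondrial membrane, measured 9.72, 9.74 and 9.70 and 10.07, 9.80 and 9.89 in the lines against 8.75 to 9.47 elsewhere, and was called in both comparisons. Ckb, the gene of the brain-type creatine kinase, was at 9.89 to 10.95 in the lines and 8.69 to 9.84 elsewhere, called in both as well. Igf2bp3, which encodes an RNA-binding protein, was lower, at 4.22 to 4.74 in the lines and 4.91 to 5.40 elsewhere, and fell in both comparisons.

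Other genes in this set did not pass the test in the non-silencing line. Cxcr4, the chemokine receptor gene, was at 7.90 to 8.45 in the lines and 6.23 to 7.68 elsewhere (adjusted p = 0.149), and Igfbp7, which encodes a secreted protein that binds insulin-like growth factors, at 5.52 to 7.40 and 4.48 to 5.38 (adjusted p = 0.13).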
